A study of Mus musculus with 12 samples.

Results

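Lysosomal enzymes and regulators were followed in mouse colon as a set of 29 genes, chosen by name and found in the deposited gene table by their Ensembl identifiers. All 29 were among its 54532 genes. They comprise 3 transcription factors, 5 membrane proteins, 7 cathepsins, 7 glycosidases, 4 enzymes and carriers of lipids, and 3 subunits of the proton pump. Of these, 28 passed the filter for testing, which asked for FPKM of 1 or more in at least 3 of 12 samples, as did 14179 genes in all. Mitf reached FPKM 1 in 1 sample and was not tested.

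The samples were colon from wild-type C57BL/6J mice in 4 groups of 3. They were HFD with 2% DSS (HFD+DSS), CD with 2% DSS (CD+DSS), HFD without DSS and CD without DSS. HFD is a high-fat diet, and CD is the diet it was set against, which the labels do not spell out. DSS is dextran sulfate sodium, a polysaccharide that injures the colonic epithelium of rodents and provokes colitis. The labels give neither age, sex nor the days on DSS or diet, nor whether replicates were different animals, so p-values measure the spread between these samples. RNA was taken from whole colon tissue. The values are FPKM, fragments scaled for gene length and for a size per library, so levels can be compared between genes. Comparison between samples rests on how the libraries were scaled. FPKM summed over all genes ran from 314800 in HFD replicate 1 to 434600 in CD+DSS replicate 2.

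The fragments on genes numbered 14655093 to 17927493 per library, and 32 to 23882 fragments per library lay behind a single member. All 11 colonocyte markers passed the filter, with summed levels of 6231 to 19810 FPKM per library, as the tissue label says. HFD+DSS replicates 1 and 3 stood apart from the other libraries on principal components of all genes, replicate 1 with a score of 50.7 on component 2 and replicate 3 with 43.2 on component 3. The summed level of Hoxa13, Hoxb13 and Hoxd13, posterior genes that mark position along the gut, was 46.6 to 92.8 FPKM in HFD+DSS, 1.62 to 40.5 FPKM in CD+DSS, 7.04 to 34.8 FPKM in HFD and 38.3 to 111 FPKM in CD libraries.

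The lysosome is the acidic compartment in which cells break down proteins, glycans and lipids delivered by endocytosis, phagocytosis and autophagy. The V-ATPase pumps protons into it, cathepsins cut proteins, glycosidases trim sugars, and NPC1 with NPC2 moves cholesterol out. TFEB, TFE3 and MITF, basic helix-loop-helix factors of the MiT family, are held in the cytosol when the kinase mTORC1 is active at the lysosomal surface. When it is not, they enter the nucleus and bind an E-box known as the CLEAR element in the promoters of many lysosomal genes. In the colon, macrophages and epithelial cells both hold many lysosomes.

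The core of that element, TCACGTG or its reverse complement CACGTGA, was looked for in the RefSeq promoter windows of GRCm38.p6, which run from 250 bases before to 50 after a gene's start. A window was held for 24 members. The core was present for 9 of these 24 (37.5%) and for 1160 of 27025 genes with a window (4.29%). The 9 were Lamp1, Mcoln1, Ctsa, Ctsd, Gla, Gaa, Glb1, Atp6v0d1 and Atp6v1a. Its inner 6 bases alone, CACGTG, which every such core contains, were in the windows of 10 members (41.7%), Ctsl being added, and of 8.09% of genes. A match describes the letters and is not a bound site. The element is known from promoters of lysosomal genes, and the members were chosen by name as such genes, so these shares are not a test.

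The windows of the 4 members below show how the cores are placed, and that of Ctsz is printed beside them because it is the member that passed the test under DSS and holds no core. Sequences run 5′ to 3′ on the strand of the gene, with each core in capitals. The Lamp1 window holds 4 cores, the inner CACGTG of the first beginning 61 bases before the start. The windows of Mcoln1, Ctsa and Ctsd hold 2 each. The Ctsa window is that of its second start, and the window of its other start holds none.
Lamp1, chr8:13158911-13159210, plus strand: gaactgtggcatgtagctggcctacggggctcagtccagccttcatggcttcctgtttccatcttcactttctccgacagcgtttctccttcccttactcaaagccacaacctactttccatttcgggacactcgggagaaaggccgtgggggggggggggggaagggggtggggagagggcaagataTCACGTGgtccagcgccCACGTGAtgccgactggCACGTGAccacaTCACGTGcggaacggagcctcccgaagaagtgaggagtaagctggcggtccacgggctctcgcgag
Mcoln1, chr8:3500269-3500568, plus strand: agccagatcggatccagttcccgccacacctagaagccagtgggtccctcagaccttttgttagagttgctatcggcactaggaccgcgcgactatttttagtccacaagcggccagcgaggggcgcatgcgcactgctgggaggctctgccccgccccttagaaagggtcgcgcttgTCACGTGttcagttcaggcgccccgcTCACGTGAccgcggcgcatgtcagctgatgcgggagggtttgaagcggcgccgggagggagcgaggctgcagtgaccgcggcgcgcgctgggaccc
Ctsa, chr2:164833523-164833822, plus strand: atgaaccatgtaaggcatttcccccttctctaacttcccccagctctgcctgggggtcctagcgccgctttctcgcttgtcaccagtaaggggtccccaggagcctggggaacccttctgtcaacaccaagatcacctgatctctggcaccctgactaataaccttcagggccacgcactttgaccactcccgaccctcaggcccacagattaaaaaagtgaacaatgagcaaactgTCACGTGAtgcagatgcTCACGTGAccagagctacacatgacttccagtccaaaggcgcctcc
Ctsd, chr7:142387778-142388077, minus strand: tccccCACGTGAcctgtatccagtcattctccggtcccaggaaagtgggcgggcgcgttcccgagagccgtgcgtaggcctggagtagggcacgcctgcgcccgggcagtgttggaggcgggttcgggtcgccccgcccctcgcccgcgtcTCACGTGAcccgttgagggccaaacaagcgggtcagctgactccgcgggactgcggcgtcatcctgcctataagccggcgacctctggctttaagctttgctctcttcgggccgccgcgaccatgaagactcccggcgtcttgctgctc
Ctsz, chr2:174438990-174439289, minus strand: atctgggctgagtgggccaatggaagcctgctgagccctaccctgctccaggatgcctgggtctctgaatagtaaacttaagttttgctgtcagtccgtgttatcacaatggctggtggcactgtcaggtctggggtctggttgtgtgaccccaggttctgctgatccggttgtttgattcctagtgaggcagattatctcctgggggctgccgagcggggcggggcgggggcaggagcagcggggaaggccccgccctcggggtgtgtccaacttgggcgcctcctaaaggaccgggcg

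The members covered a wide range of levels. Psap, the precursor of the saposins that present lipids to lysosomal hydrolases, was the highest on average, at 283 to 511 FPKM. Ctss, a cathepsin of antigen-presenting cells, lay at 137 to 346 FPKM, and Lamp1, the most abundant glycoprotein of the lysosomal membrane, at 142 to 227 FPKM. The transcription factors were at the low end. Tfeb was at 2.33, 3.50 and 3.36 FPKM in HFD+DSS, 3.59, 3.61 and 3.36 FPKM in CD+DSS, 2.94, 2.25 and 2.37 FPKM in HFD, and 2.00, 2.72 and 3.41 FPKM in CD colons. Mitf stood lowest of all members, at 0.984, 0.527 and 0.558 FPKM in HFD+DSS, 0.664, 0.383 and 0.812 FPKM in CD+DSS, 0.507, 1.13 and 0.874 FPKM in HFD, and 0.513, 0.894 and 0.842 FPKM in CD colons, with the groups overlapping. The 3 pump subunits differed among themselves, with Atp6v0d1 at 45.0 to 67.1 FPKM, Atp6v1a at 15.3 to 27.4 FPKM and Atp6v1h at 5.89 to 11.1 FPKM. Of the members not described further, Lamp2, a membrane glycoprotein like Lamp1, lay at 15.6 to 36.3 FPKM, Mcoln1, the calcium channel of the lysosomal membrane, at 3.18 to 5.54 FPKM, Gusb, the beta-glucuronidase, at 9.06 to 15.3 FPKM and Neu1, the sialidase, at 28.9 to 78.3 FPKM. None of them passed the test in any comparison.

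**Figure D1:**
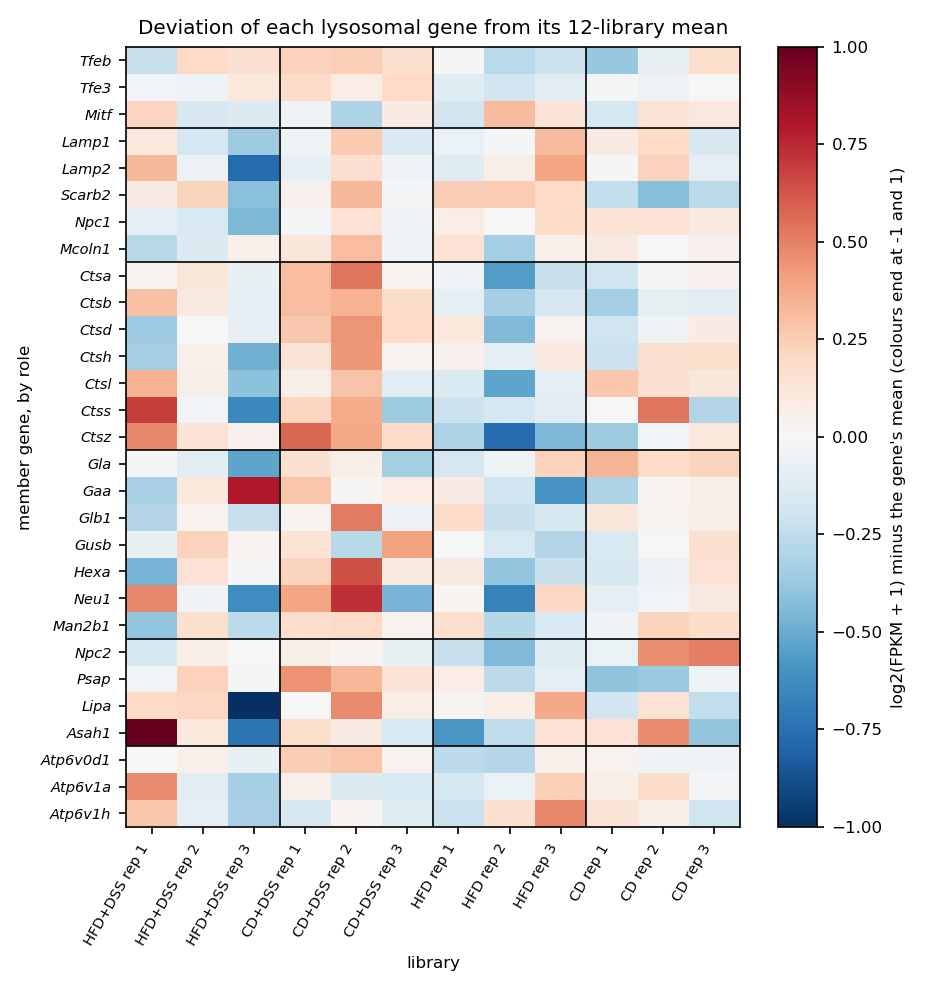
Deviation of each lysosomal gene from its own mean over the 12 libraries, on the log2(FPKM + 1) scale, with genes by role down the page and libraries across, HFD+DSS at the left. CD+DSS replicates 1 and 2 are above the mean for 23 and 26 of 28 members, and HFD+DSS replicate 3 and HFD replicate 2 for 7 and 4.

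Under DSS, averaged over both diets, Ctsz was the only member that passed the test, and it was higher. Ctsz encodes cathepsin Z, a carboxypeptidase of the cathepsin family that is abundant in macrophages and other myeloid cells. The gene (ENSMUSG00000016256) lies on mm10 chromosome 2 at 174427493 to 174439039 on the minus strand. It had 140.2, 110.2 and 103 FPKM in HFD+DSS colons, 149, 131 and 114 FPKM in CD+DSS colons, 80.9, 58.6 and 73.1 FPKM in HFD colons, and 78.2, 98.5 and 108 FPKM in CD colons. Within each diet every DSS library was above every library without DSS, while across diets CD replicate 3 lay above HFD+DSS replicate 3. The means were 125 ± 18.3 FPKM with DSS and 82.9 ± 17.8 FPKM without (SD, n = 6 each). In limma over all 12 samples the difference in log2(FPKM + 1) was 0.60 ± 0.14 (SE), with a Benjamini-Hochberg adjusted p of 0.0477 over the 14179 genes tested.

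That call lay close to the threshold. Over 19 alternative analyses the adjusted p of Ctsz ran between 0.0344 and 0.14, the difference between 0.53 and 0.65, and the call held in 3. With the mean log2(FPKM + 1) of the 3 posterior Hox genes as a covariate the adjusted p was 0.0644. Leaving out any 1 library other than CD replicate 3 ended it, with an adjusted p of up to 0.133. Across all genes 389 were called in this comparison (2.74%), 265 of them higher (1.87%), so that 1 of 28 members is near the share of all genes. At an unadjusted p under 0.05, 4 members were higher, beside 13.0% of all genes, and 1 was lower, beside 10.5%. The median difference over the 28 members was 0.080, beside 0.0075 over all genes tested, and 17 were positive, beside 50.9% of all genes.

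Markers of macrophages, in which Ctsz is abundant, were positive for 5 of 13 and negative for 8 of 13 in the same comparison. All 13 passed the filter, and none was at 0 in any group. The summed level was 185 to 656 FPKM (median 440.1) in DSS libraries and 285 to 460.2 FPKM (median 377) in libraries without DSS, and limma called 0 of 13. Their median difference was -0.14, with 0 genes higher and 2 lower at an unadjusted p under 0.05. The summed level of 9 neutrophil markers, of which 4 were tested, was 38.7 to 562 FPKM with DSS and 3.27 to 166 FPKM without. Most of it came from Ly6g, at 33.8 to 521 FPKM with DSS and 0.800 to 165 FPKM without. The sum thus followed 1 gene and was not read as a level of neutrophils. S100a9, a calcium-binding protein of neutrophils, had 2.91 to 16.6 FPKM with DSS and 0 to 0.977 FPKM without, and was called at 2.46 ± 0.40 (adjusted p 0.0123). Summed markers of B and plasma cells lay at 144 to 561 FPKM with DSS and 621 to 1103 FPKM without. Of these 8 markers, 3 were positive and 5 negative. Limma called 2 of 8 lower, beside 2.74% of all genes called in either direction. The part of all these cell types in the Ctsz difference was not tested. In whole tissue, fewer cells of a type and less RNA per cell cannot be told apart.

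The other cathepsins did not pass the test. Ctsb, an abundant cysteine protease (chromosome 14, 63122462 to 63145923), was at 137, 118 and 104 FPKM in HFD+DSS, 138, 141 and 127 FPKM in CD+DSS, 105, 88.3 and 99.0 FPKM in HFD, and 87.6, 104 and 103 FPKM in CD colons. All CD+DSS libraries were above all CD libraries, while the HFD+DSS and HFD libraries overlapped by a single library. The difference was 0.46 ± 0.16 under CD (adjusted p 0.229), 0.29 ± 0.16 under HFD (adjusted p 0.439) and 0.38 ± 0.11 averaged (adjusted p 0.0882). Ctsb shares 12.8% of its exon bases with Fdft1 on the other strand, and whether the authors' counting used strand is not given in the sources used here. Ctsa, the protective protein of the galactosidase and neuraminidase complex, had 33.1, 35.3 and 30.7 FPKM in HFD+DSS, 40.3, 47.3 and 33.0 FPKM in CD+DSS, 31.6, 21.7 and 27.6 FPKM in HFD, and 27.99, 32.6 and 33.4 FPKM in CD colons. The groups overlapped in both diets, and the difference was 0.34 ± 0.18 under CD (adjusted p 0.382), 0.30 ± 0.18 under HFD (adjusted p 0.48) and 0.32 ± 0.12 averaged (adjusted p 0.163).

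**Figure D2:**
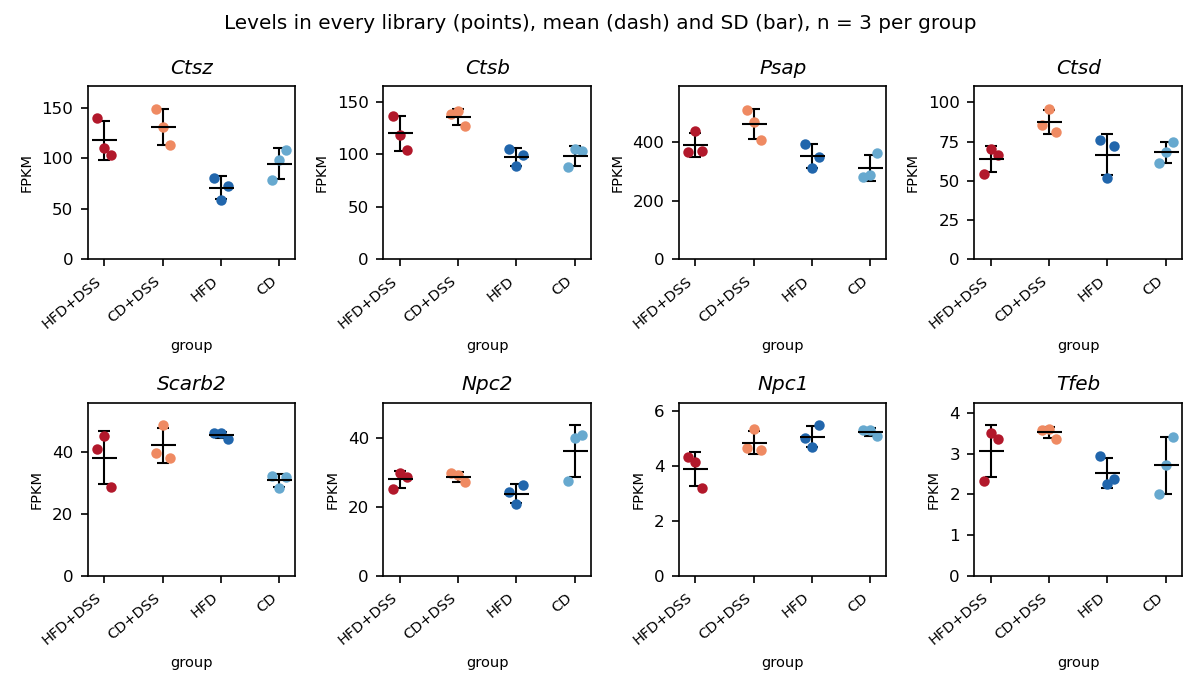
FPKM of 8 lysosomal genes in every library, with HFD+DSS at the left and CD at the right of each panel, the dash giving the mean and the bar the SD of 3 libraries. Ctsz is 103 to 149 FPKM in DSS libraries and 58.6 to 108 FPKM in the others, and Scarb2 is higher in HFD colons than in CD colons with no overlap.

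Under CD alone, 0 of 28 members were called for CD+DSS against CD, where 12 of all genes were (0.0846%). At an unadjusted p under 0.05, 4 members were higher, beside 8.67% of all genes, and 0 lower, beside 6.49%, and voom on recovered fragments called 0 members as well. The difference was positive for 18 of 28, beside 51.5% of all genes, with a median of 0.13 beside 0.012. Without CD+DSS replicate 2 the median was 0.021, and 14 of 28 were negative. The groups did not overlap for 6 higher members, Tfe3, Ctsb, Ctsd, Ctsz, Psap and Scarb2, and for 1 lower, Gla, beside 13.7% and 10.4% of all genes. Psap (chromosome 10, 60277627 to 60302597) was at 367, 438 and 369.5 FPKM in HFD+DSS, 511, 471 and 409 FPKM in CD+DSS, 394, 311 and 351 FPKM in HFD, and 283, 289 and 363 FPKM in CD colons. All 3 CD+DSS libraries were above the CD libraries, with a difference of 0.58 ± 0.18 (adjusted p 0.201), against 0.15 ± 0.18 under HFD (adjusted p 0.737) and 0.37 ± 0.13 averaged (adjusted p 0.132). Ctsz differed by 0.47 ± 0.20 (adjusted p 0.302), Scarb2 by 0.43 ± 0.18 (adjusted p 0.294) and Ctsd by 0.36 ± 0.18 (adjusted p 0.373) under CD. Gla, the alpha-galactosidase missing in Fabry disease, was at 6.83, 6.38 and 4.51 FPKM in HFD+DSS, 7.84, 7.33 and 5.30 FPKM in CD+DSS, 6.10, 6.68 and 8.35 FPKM in HFD, and 9.09, 8.07 and 8.30 FPKM in CD colons. CD+DSS was below CD with no overlap, and HFD overlapped with CD, the difference being -0.25 ± 0.18 without DSS (adjusted p 1).

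Under HFD alone, limma again called 0 of 28 members for HFD+DSS against HFD, beside 48 genes in all (0.339%). At an unadjusted p under 0.05, 1 member was higher, Ctsz at 0.73 ± 0.20 (adjusted p 0.158), beside 7.34% of all genes, and 1 was lower, Npc1, beside 6.23%. Voom called 0 members. The difference was positive for 16 of 28, beside 50.9% of all genes, with a median of 0.075 beside 0.0069. That direction turned on 1 library: without HFD replicate 2 the median was -0.037, and 15 of 28 were negative. The groups did not overlap for 2 higher members, Ctsz and Tfe3, beside 8.82% of all genes, and for 1 lower, Npc1, beside 7.60%. Npc1, the membrane protein that exports cholesterol from lysosomes (chromosome 18, 12189692 to 12236400), had 4.34, 4.15 and 3.20 FPKM in HFD+DSS, 4.66, 5.33 and 4.58 FPKM in CD+DSS, 5.02, 4.71 and 5.49 FPKM in HFD, and 5.31, 5.32 and 5.08 FPKM in CD colons. Every HFD+DSS library was below every library of the other groups. The difference was -0.32 ± 0.13 against HFD (adjusted p 0.316) and -0.20 ± 0.09 averaged over diets (adjusted p 0.1995). Gaa, the acid alpha-glucosidase that breaks down glycogen, had 9.53, 13.2 and 22.0 FPKM in HFD+DSS, 15.0, 12.3 and 12.8 FPKM in CD+DSS, 13.0, 10.5 and 7.76 FPKM in HFD, and 9.63, 12.4 and 12.7 FPKM in CD colons. HFD+DSS replicate 3 held the highest value, the groups overlapped, and the difference under HFD was 0.43 ± 0.26 (adjusted p 0.489), or 0.13 without that library.

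Of the transcription factors, Tfe3 had 3.36, 3.31 and 3.80 FPKM in HFD+DSS, 4.07, 3.70 and 4.12 FPKM in CD+DSS, 3.08, 2.90 and 3.12 FPKM in HFD, and 3.41, 3.30 and 3.45 FPKM in CD colons. Within each diet all DSS libraries were above those without DSS, by 0.17 ± 0.08 averaged over diets (adjusted p 0.22). Tfeb differed by 0.25 ± 0.12 (adjusted p 0.237), with overlap in both diets. Members whose window holds the CLEAR core differed by a median of 0.0072 (9 members, 5 positive) in the DSS comparison averaged over diets, and members whose window holds none by 0.11 (14 members, 10 positive).

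**Figure D3:**
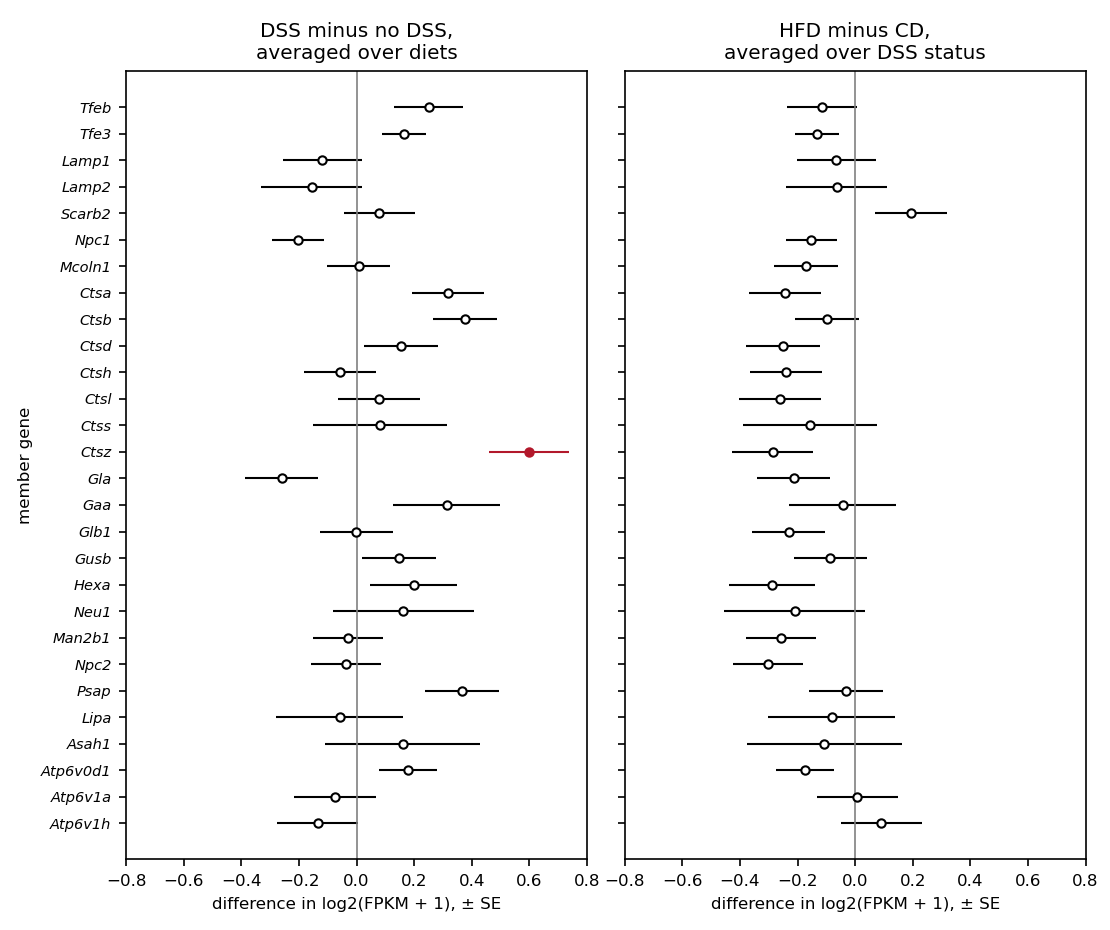
Difference in log2(FPKM + 1) with its SE for the 28 lysosomal genes tested, in the 2 panels for the DSS and the HFD comparison, averaged over the other factor. Ctsz stands highest in the DSS panel at 0.60, and 25 of 28 genes lie left of 0 in the HFD panel.

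Under HFD, against CD, limma called no member and no gene at all, with or without DSS (0 of 14179 genes, 0%), and voom called 0 too. Without DSS, 22 of 28 members were lower in HFD than in CD colons, beside 54.1% of all genes, with a median difference of -0.13 beside -0.016 over all genes. With DSS, 24 of 28 were lower in HFD+DSS than in CD+DSS colons, beside 54.6% of all genes, with medians of -0.18 and -0.026. Averaged, 25 of 28 were negative, beside 55.9% of all genes, with a median of -0.15. Those counts leaned on particular libraries. Without HFD replicate 2 the count in HFD colons was 16 and the median -0.042, and without HFD+DSS replicate 3 the count in HFD+DSS colons was 19 and the median -0.078. Without both of these libraries, chosen after their values were seen, the averaged count was 18 of 28 and its median -0.10. At an unadjusted p under 0.05 without DSS, 1 member was higher, beside 1.77% of all genes, and 1 lower, beside 2.38%. With DSS 0 were higher, beside 2.77%, and 2 lower, beside 3.84%, and in the average 0 were higher, beside 1.77%, and 1 lower, beside 2.90%. The groups did not overlap without DSS for 1 higher member, Scarb2, beside 4.61% of all genes, and for 3 lower, Tfe3, Ctsl and Npc2, beside 5.02%. With DSS they did not overlap for 0 higher members, beside 3.60% of all genes, and for 2 lower, Ctsd and Npc1, beside 5.85%.

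In the same comparisons limma called 0 markers of adipocytes, smooth muscle, T and NK cells, goblet cells and macrophages, but many lay to the same side. Adipocyte markers were higher in HFD than in CD colons for 7 of 7 tested, with a median of 1.72 and summed levels of 59.0 to 238 FPKM in HFD and 8.40 to 112 FPKM in CD colons, and in HFD+DSS than in CD+DSS colons for 7 of 7, with a median of 0.31. Smooth muscle markers were higher in HFD+DSS than in CD+DSS colons for 9 of 9, with a median of 0.88 and sums of 1106 to 3133 FPKM in HFD+DSS and 674 to 1258 FPKM in CD+DSS colons, and were positive for 3 of 9 without DSS. T and NK cell markers were higher in HFD than in CD colons for 10 of 10, with sums of 77.5 to 108 FPKM in HFD and 24.8 to 66.6 FPKM in CD colons. With DSS they were lower for 10 of 10, with sums of 29.6 to 56.3 FPKM in HFD+DSS and 74.4 to 167 FPKM in CD+DSS colons. Goblet cell markers were lower in HFD than in CD colons for 8 of 8, but in HFD+DSS than in CD+DSS colons for 4 of 8. Averaged over DSS they were lower for 6 of 8, with a median of -0.64. Macrophage markers were negative for 7 of 13 without DSS and for 11 of 13 with DSS. In the average they were negative for 11 of 13, with a median of -0.14. The part of these cells in the members' differences was not tested.

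Scarb2 and Npc2 had the smallest p without DSS, in opposite directions. Scarb2 encodes LIMP-2, the membrane receptor that carries glucocerebrosidase to lysosomes (chromosome 5, 92441314 to 92506833). It was at 40.8, 45.0 and 28.5 FPKM in HFD+DSS, 39.6, 48.5 and 38.0 FPKM in CD+DSS, 45.9, 46.0 and 44.2 FPKM in HFD, and 32.3, 28.4 and 31.8 FPKM in CD colons. The HFD libraries agreed closely and all lay above the CD libraries, by 0.54 ± 0.18 (adjusted p 0.892). Npc2, the soluble cholesterol carrier that hands its load to NPC1 (chromosome 12, 84754562 to 84773152), was at 25.2, 29.8 and 28.6 FPKM in HFD+DSS, 29.9, 29.1 and 27.1 FPKM in CD+DSS, 24.2, 20.8 and 26.2 FPKM in HFD, and 27.3, 39.9 and 40.9 FPKM in CD colons. HFD was below CD with no overlap, by -0.57 ± 0.17 (adjusted p 0.798), and by -0.30 ± 0.12 averaged over DSS (adjusted p 0.976), while the DSS groups lay within 25.2 to 29.9 FPKM. Ctsl, another cysteine protease, had 28.2, 22.9 and 16.3 FPKM in HFD+DSS, 23.0, 27.1 and 20.4 FPKM in CD+DSS, 19.9, 15.0 and 20.5 FPKM in HFD, and 26.7, 24.7 and 23.9 FPKM in CD colons. It was lower in HFD than in CD colons with no overlap, by -0.44 ± 0.20 (adjusted p 1). Ctsz, given above, was at -0.42 ± 0.20 without DSS (adjusted p 1) and -0.29 ± 0.14 averaged (adjusted p 0.9998), with overlap. Ctsl shares 26.8% of its exon bases with Gm47123 on the other strand.

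With DSS present, Ctsd, Ctsh and Npc1 had the smallest p, all lower in HFD+DSS. Ctsd, the main aspartic protease of lysosomes (chromosome 7, 142375911 to 142388038), was at 54.6, 70.4 and 66.6 FPKM in HFD+DSS, 85.4, 96.0 and 81.2 FPKM in CD+DSS, 76.0, 51.6 and 72.3 FPKM in HFD, and 61.5, 68.6 and 74.8 FPKM in CD colons. CD+DSS alone stood apart, above every library of the other groups, and HFD+DSS was below it by -0.45 ± 0.18 (adjusted p 0.74). The averaged HFD difference was -0.25 ± 0.13 for Ctsd and -0.24 ± 0.12 for Ctsa (adjusted p 0.9998 each). Ctsd shares 34.4% of its exon bases with Gm49369 on the same strand, so that its value may depend on how shared fragments were assigned. Ctsh, a cathepsin with aminopeptidase activity, was at 10.8, 14.4 and 9.64 FPKM in HFD+DSS, 15.2, 19.0 and 14.3 FPKM in CD+DSS, 14.3, 12.9 and 14.9 FPKM in HFD, and 11.8, 15.6 and 15.8 FPKM in CD colons. The DSS groups overlapped slightly, with a difference of -0.45 ± 0.18 (adjusted p 0.739). Npc1, given above, was lower in HFD+DSS than in CD+DSS with no overlap, by -0.26 ± 0.13 (adjusted p 0.749).

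Among the glycosidases, Hexa, a subunit of beta-hexosaminidase that cleaves GM2 ganglioside, had 50.03, 76.8 and 68.5 FPKM in HFD+DSS, 81.1, 108 and 73.9 FPKM in CD+DSS, 74.0, 52.9 and 59.4 FPKM in HFD, and 61.9, 66.7 and 77.1 FPKM in CD colons. Glb1, the acid beta-galactosidase, had 17.2, 21.8 and 18.0 FPKM in HFD+DSS, 21.7, 30.9 and 20.4 FPKM in CD+DSS, 24.3, 18.1 and 18.9 FPKM in HFD, and 23.1, 21.7 and 22.3 FPKM in CD colons. Both overlapped in each comparison, and with DSS they differed by -0.43 ± 0.21 (adjusted p 0.749) and -0.33 ± 0.18 (adjusted p 0.769). Without HFD+DSS replicate 1 the Hexa difference was -0.25, and without CD+DSS replicate 2 the Glb1 difference was -0.15. Averaged over DSS, Hexa stood at -0.29 ± 0.15 (adjusted p 0.9998). Man2b1, the lysosomal alpha-mannosidase, had 10.8, 16.2 and 11.9 FPKM in HFD+DSS, 16.4, 16.6 and 14.8 FPKM in CD+DSS, 16.3, 11.6 and 12.9 FPKM in HFD, and 14.1, 17.0 and 16.6 FPKM in CD colons. Its HFD difference was -0.22 ± 0.17 without DSS (adjusted p 1), -0.30 ± 0.17 with DSS (adjusted p 0.784) and -0.26 ± 0.12 averaged (adjusted p 0.9998). Lamp1 was at 196, 160.4 and 142 FPKM in HFD+DSS, 177, 218 and 163 FPKM in CD+DSS, 173, 179.8 and 227 FPKM in HFD, and 192, 209 and 163 FPKM in CD colons, with overlap throughout.

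The DSS difference under HFD minus that under CD, the interaction, was called for 0 of 28 members and 0 of 14179 genes by limma (0%) and by voom. At an unadjusted p under 0.05, 0 members were higher, beside 2.69% of all genes, and 1 was lower, beside 2.73%. That member was Scarb2, with -0.70 ± 0.25 (adjusted p 0.801), the DSS difference being -0.27 ± 0.18 under HFD (adjusted p 0.517) and 0.43 ± 0.18 under CD. Without HFD+DSS replicate 3 the difference under HFD was -0.081. Over 19 alternative analyses the interaction of Scarb2 ran between -0.83 and -0.32, and that of Npc2 between 0.28 and 0.71. The 3 posterior Hox genes were all positive in the interaction, with a median of 4.24. The part of position along the gut in the members' interaction was not tested. The DSS and the diet comparisons share samples, since the CD libraries stand in both CD+DSS against CD and HFD against CD, and so on for each group. Npc2 stood at 0.53 ± 0.24 (adjusted p 0.923) with the opposite sign, Ctsh at -0.43 ± 0.25, Psap at -0.42 ± 0.26 and Ctsd at -0.40 ± 0.26 (adjusted p 0.9997 each). Lipa, the acid lipase that frees cholesterol from its esters, was at 25.8, 26.0 and 9.72 FPKM in HFD+DSS, 22.3, 31.4 and 23.6 FPKM in CD+DSS, 22.8, 23.5 and 29.3 FPKM in HFD, and 19.5, 24.9 and 18.6 FPKM in CD colons. Its interaction was -0.68 ± 0.44 (adjusted p 0.9997), and -0.23 without HFD+DSS replicate 3, the lowest library.

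**Figure D4:**
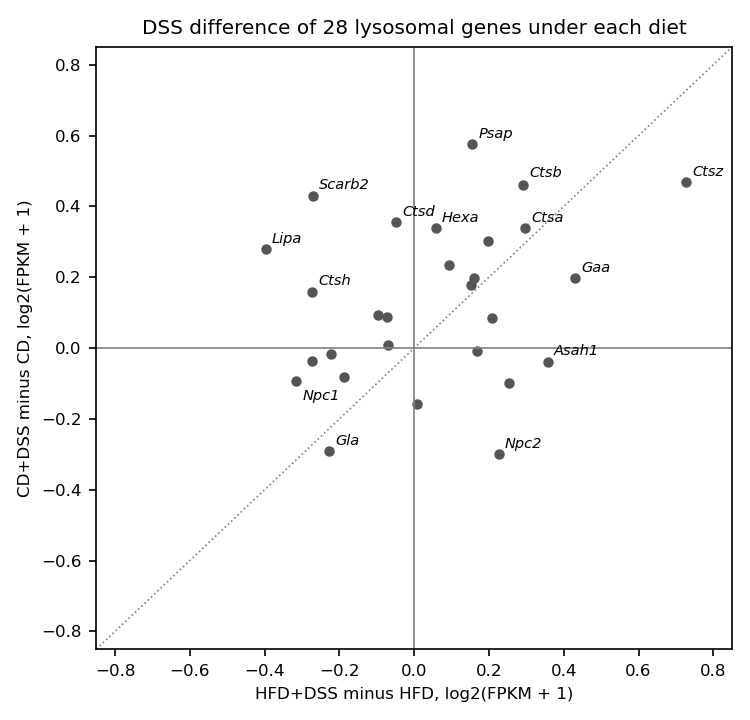
DSS difference in log2(FPKM + 1) of the 28 lysosomal genes under HFD (horizontal) and under CD (vertical), each point a gene. Ctsz lies to the upper right at 0.73 and 0.47, Psap is highest under CD at 0.58, and Scarb2 lies on opposite sides of 0.

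The wider lysosomal pathway, in 5 lists of other genes, held no gene called by limma in any of 7 comparisons. Of all genes, 2.74% were called for DSS averaged over diets, 0.0846% under CD and 0.339% under HFD. For the HFD comparisons and the interaction the share was 0%. In the DSS comparison averaged over diets, where 50.9% of all genes were positive, 13 of 16 other V-ATPase subunits tested were, with a median of 0.17 beside 0.0075 over all genes. At an unadjusted p under 0.05, 5 of these subunits were higher, beside 13.0% of all genes, and 0 lower, beside 10.5%. Atp6v1g1, a stalk subunit, had 78.8 to 119.6 FPKM in DSS libraries and 52.3 to 77.1 FPKM in libraries without, a difference of 0.45 ± 0.14 (adjusted p 0.0939). Of the 3 subunits in the member set, 1 was positive and 2 negative. Among 33 tested of 35 other enzymes, 19 were positive. Lgmn, the asparaginyl endopeptidase that matures cathepsins, differed by 0.65 ± 0.16 (adjusted p 0.0532) and Fuca1, the alpha-fucosidase, by 0.55 ± 0.15 (adjusted p 0.0742). Among 17 tested of 19 membrane proteins, 8 were positive, and Slc17a5, the sialic acid exporter, had 4.56 to 7.36 FPKM with DSS and 7.44 to 10.5 FPKM without (difference -0.46 ± 0.11, adjusted p 0.0595).

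Of the regulators upstream of TFEB, 10 of 22 tested were positive in the same comparison. Ywhag, a 14-3-3 protein of the family that holds TFEB in the cytosol, had 25.2 to 37.5 FPKM with DSS and 20.3 to 24.0 FPKM without, a difference of 0.45 ± 0.11 (adjusted p 0.0602). Fnip1, the folliculin partner that acts on the Rag GTPases, had 2.33 to 5.66 FPKM with DSS and 6.18 to 9.07 FPKM without, a difference of -0.64 ± 0.17 (adjusted p 0.066). Neither gene passed the test. Of 16 sorting genes, which tag and carry enzymes to the lysosome, 6 were positive with DSS. Grn, which encodes the lysosomal cofactor progranulin, differed by 0.38 ± 0.12 (adjusted p 0.1) and Gnptab, a subunit of the enzyme that makes the mannose 6-phosphate tag, by -0.36 ± 0.12 (adjusted p 0.107).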

How the data were processed

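The authors deposited 1 table of FPKM for 54532 genes in 12 libraries. Per the labels, total RNA went into a SMARTER mRNA-Seq kit, and per the submitters' processing notes the build was mm10. No aligner, counting tool, annotation release or strand setting is named in the sources used here. FPKM came out as whole fragments within 0.1 for 98.2% to 98.5% of values under 200 fragments per library, using GENCODE M21 exon lengths, and the deposited values already had equal median ratios (1.009 in every library), a scaling that no label mentions. Intervals from fragments would cover counting error only and are not given.

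Values were analysed as log2(FPKM + 1), which understates changes of low genes, with limma 3.58.1 in R 4.3.3 (a trend over mean level), with 1 mean per group and 7 comparisons. Testing required FPKM of 1 or more in 3 of 12 samples (14179 genes), and a call required 0.05 after Benjamini-Hochberg adjustment over all of them. The fit was tested on simulated data. Fold changes were printed for members called and for the 6 smallest p of each comparison, and for up to 3 genes per list. Outside that rule they were printed for Tfeb and, for DSS under HFD, for Psap, Lamp2 and Asah1. Replicate numbers did not pair the samples: 3 of 18 same-number pairs correlated above 0.1, beside 15 of 36 others. Members and lists were chosen with earlier results of these data known.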

Additional observations from a re-analysis of the deposited data

How the results depend on the processing

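No member changed its direction in any alternative run for the genes named in each comparison. Those genes were picked for their smallest p in these data, so a change of sign was unlikely for them. Among members not named, some changed sign. For DSS under HFD, Lamp2 went from -0.27 to 0.027 without HFD+DSS replicate 3. Asah1 went from 0.36 to -0.080 without HFD+DSS replicate 1. The count of members called in the DSS comparison averaged over diets, 1 as reported, was 0 without the filter on low values (Ctsz adjusted p 0.0866), with equal library sums (0.0819), with a replicate block (0.0884), with the posterior Hox sum as covariate (0.0644) and without both low libraries (0.14), and 1 at a pseudocount of 0.1 and with voom on recovered fragments. Leaving out each library in turn gave 0 to 1. With the replicate block 162 of all genes were called in that comparison, against 389, and over all alternatives 95 to 479. Under CD 0 to 36 genes were called, against 12, and under HFD 1 to 78, against 48. In every other comparison no alternative called a member, and at most 3 genes in all. The median over members moved by more than its spread between libraries in 5 cases. Leaving out each library in turn gave 0.021 to 0.21 for DSS under CD (lowest without CD+DSS replicate 2), -0.037 to 0.13 for DSS under HFD (lowest without HFD replicate 2), -0.26 to -0.078 for HFD with DSS (highest without HFD+DSS replicate 3, and also -0.078 without both low libraries), 0.026 to 0.16 for DSS averaged, -0.15 to -0.042 for HFD without DSS (highest without HFD replicate 2), -0.19 to -0.11 for HFD averaged and -0.18 to -0.051 for the interaction. Of 42 differences of members named by rule, 14 moved by over 1.5 times when 1 library was left out, and 0 changed sign. The cause was not tested. A fit of only the 2 groups compared was not possible for the averaged comparisons and the interaction. Scaling to equal sums moved the median of all genes by less than 0.1. For DSS averaged over diets it moved by -0.045, from a median of 0.0075. In alternatives other than leaving out 1 library, the member median fell as low as 0.014 for DSS averaged, against 0.080. For DSS under HFD it fell as low as 0.0090, against 0.075.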

Other observations

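Among the members, Asah1, Lipa and Ctss had the highest ratios between the 3 HFD+DSS libraries. The ratio of the highest to the lowest library there was 3.39 for Asah1, the acid ceramidase, which had 121, 64.6 and 35.7 FPKM, 2.67 for Lipa and 2.53 for Ctss. In CD+DSS libraries the same ratios were 1.26, 1.41 and 1.66. Over all 28 members the median coefficient of variation was 20.9% in HFD+DSS, 12.6% in CD+DSS, 16.1% in HFD and 10.6% in CD libraries, beside 25.0%, 18.0%, 18.9% and 17.0% over all genes tested. Smooth muscle markers summed to 3133 FPKM in HFD+DSS replicate 3, where most members were low, and to 1159 and 1106 FPKM in the other two; their part was not tested.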
